A study of Mus musculus with 2 samples.

Results

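The clustered protocadherin genes were examined as a region of mouse chromosome 18, 37080001 to 38005000 on the build mm9, with 500 kb on either side. The region is defined by its position, without a threshold on its 5hmC signal. It spans 925 kb and was divided into 92 fixed bins of 10 kb and a last 5 kb, of 247221 autosomal bins in all. The study measured 5-hydroxymethylcytosine (5hmC) in kidney DNA of male C57BL/6 mice aged 6 weeks. It holds 1 library pulled down with an antibody against 5hmC (hMeDIP, 11424027 fragments) and 1 input library made without antibody (8316507 fragments). How many animals gave the DNA is not stated, and genomic DNA carries no expressed markers against which the kidney label could be checked. Neither group was replicated, so no test between them is possible. All intervals are 95% intervals for counting error alone, and reads that carry no molecular identifier may be copies of the same molecule.

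Protocadherins are cell adhesion proteins of the cadherin superfamily, best known from neurons. There each cell uses a few members of the clusters, which gives its surface an identity of its own. In the alpha and gamma clusters each variable exon has a promoter of its own and is spliced to a set of constant exons shared by the whole cluster and placed at its far end. The beta genes have no shared constant exons. The choice of promoter is known to depend on CTCF, cohesin and DNA methylation. 5hmC is made from 5-methylcytosine by TET enzymes and is commonly found in the bodies of transcribed genes.

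The RefSeq gene table lists 58 clustered protocadherin genes here, in the order of 14 alpha, 22 beta and 22 gamma genes. The alpha genes end with the C-type members Pcdhac1 and Pcdhac2. The gamma genes are 12 of the A type and 7 of the B type, followed by Pcdhgc3, Pcdhgc4 and Pcdhgc5, the 3 of the C type. Slc25a2, a mitochondrial carrier, and Taf7, a subunit of the general transcription factor TFIID, stand between the beta and the gamma genes. Zmat2 is the nearest protein-coding gene before Pcdha1, and Diaph1, a formin that nucleates actin, is the nearest after the gamma cluster. That table is on a different build, so it was used only for names and order. The region was therefore divided by bin number into approximate parts: alpha (bins 1 to 27), the stretch between alpha and beta (28 to 34), beta (35 to 61), the stretch between beta and gamma (62 to 74) and gamma (75 to 92 and the last 5 kb). No bin or peak is assigned to a gene or exon.

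5hmC was low over most of the protocadherin region and rose steeply at its gamma end. The region held 1825 hMeDIP and 2735 input fragments. The ratio, which is the hMeDIP share over the input share of all fragments, was 0.486 (0.458 to 0.516), where 1 is the mean of the genome in these libraries. Chromosome 18 as a whole stood at 0.972 (0.967 to 0.976). Among 2547 adjoining autosomal stretches of the same length, the region stood at the 27.2nd percentile, and the median stretch had a ratio of 0.891. The pooled value thus lies well inside the range of autosomal stretches. It averages parts of which gamma lies above the counting intervals of all the others.

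A bin with at least 10 input fragments was called low where its log2 ratio was under -0.5, and high where it was over 0.5, provided that its interval did not include 0. Of 78 such bins in the region, 62 (79.5%) were low, against 42% of 225777 autosomal bins. High bins numbered 3 (3.85%), against 20.9% of autosomal bins, and all 3 were the last whole bins of the gamma part. All 62 low bins had a log2 ratio under -1. Of the autosomal bins, 35.5% were called low with such a ratio. The median bin stood at -1.77, against -0.50 on the autosomes, and 68 of the 78 bins were below that autosomal median. Below the 10th percentile of autosomal bins lay 30 bins of the region (38.5%), of which 12 were in alpha, 11 in beta and 0 in gamma. The bins of the region had an SD of 1.18 on the log2 scale, against 0.52 expected from counting, so their differences are larger than counting noise gives. Neighbouring bins are not independent.

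**Figure D1:**
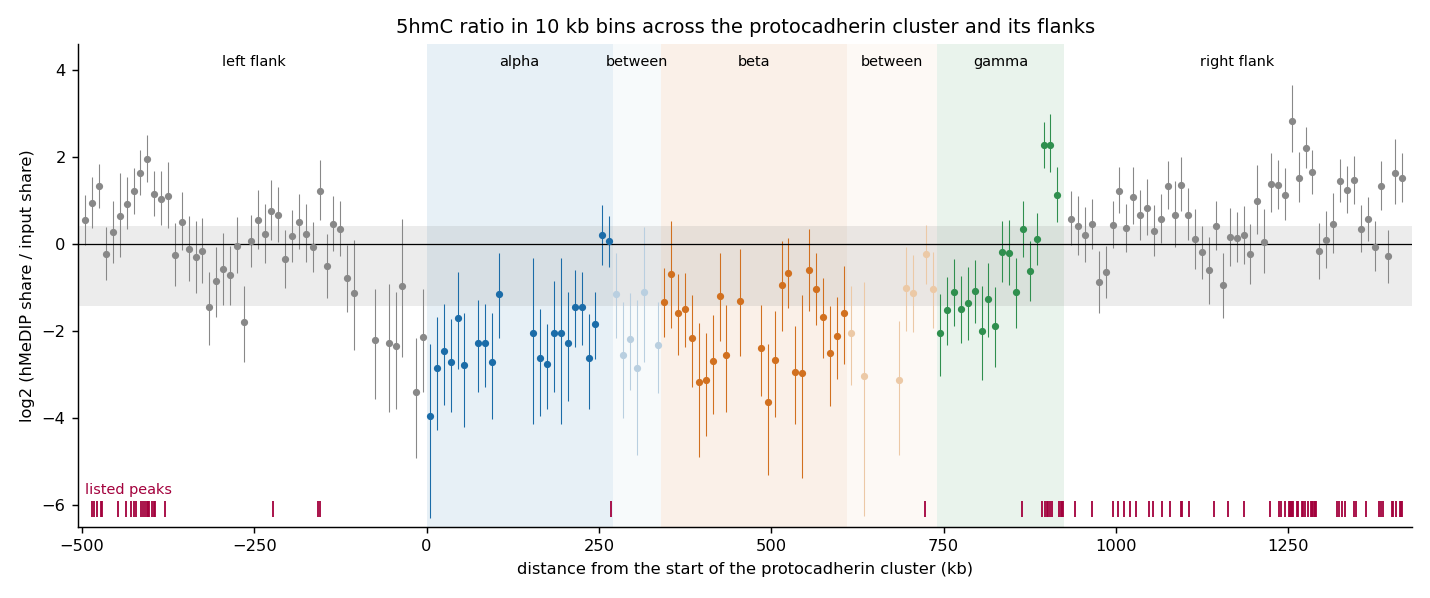
Log2 ratio of hMeDIP to input share (vertical axis) in 10 kb bins against the distance in kb from the start of the protocadherin region, for bins with at least 10 input fragments and some hMeDIP fragments. Bars are 95% counting intervals, the grey band spans the quartiles of autosomal bins (-1.43 and 0.42), and ticks at the bottom mark listed peaks; the beta bins and the alpha bins other than 26 and 27 lie below the black line of the genome mean, and the last 3 gamma bins stand at 1.13 to 2.29.

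The alpha part had a pooled ratio of 0.301 (0.264 to 0.342) with 338 fragments from hMeDIP and 818 from input. Of its 22 bins with enough input, 20 were low, 0 were high and 2 were neither. Its bins ran from -3.96 to 0.20 on the log2 scale with a median of -2.27. The 2 bins that were not low lay at the far end, toward which the shared alpha constant exons are known to lie. Neither bin was placed on an exon. In other words, the alpha part was split into a long low stretch and a short end at about the genome mean. All extents other than the fixed parts and flanks, here and below, were chosen after the values were seen.

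The first 25 alpha bins together had a ratio of 0.221 (0.190 to 0.257), with 226 hMeDIP fragments on 743 of input. Single bins there held 1 to 21 hMeDIP fragments, against 33 in the median autosomal bin. All 20 of them with enough input were low. The lowest was bin 1 at -3.96 (-6.31 to -2.29) on the log2 scale, from 3 hMeDIP and 34 input fragments. The bin after it had 7 and 37 fragments and -2.86 (-4.27 to -1.68). Since the 2 higher bins were left out after they were seen, this value is a description, and alpha as a whole stood at the 13.6th percentile of 8638 autosomal stretches of 270 kb.

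The step at the end of alpha fell between bins 25 and 26. Bin 25, with 21 fragments of hMeDIP and 55 of input, stood at -1.85 (-2.65 to -1.10) on the log2 scale. Bin 26 held 49 and 31 fragments, at 0.20 (-0.48 to 0.90), and bin 27 held 63 and 44, at 0.06 (-0.52 to 0.65). Bin 28, beyond alpha, was down again at -1.16 (-2.16 to -0.21), with 16 and 26 fragments. Bins 26 and 27 together had a ratio of 1.09 (0.804 to 1.48), which was 4.90 times (3.49 to 6.91) that of the first 25 bins. A listed peak of 1013 bp in bin 27, at 37347143 to 37348155, held 39 of their 112 hMeDIP fragments and 5 of their 75 input fragments. Outside that peak the ratio of the 2 bins was 0.759 (0.539 to 1.07), still above the interval of the first 25 bins.

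The stretch between alpha and beta stayed low at 0.281 (0.207 to 0.377), with 64 fragments in hMeDIP and 166 in input. Of its 6 bins with enough input, 5 were low and 0 high. It held no listed peak, as did 48.7% of autosomal stretches of its length.

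The beta part, with the single-exon beta genes, had a pooled ratio of 0.279 (0.244 to 0.318), with 316 fragments in hMeDIP and 825 in input. It held no listed peak in 270 kb, as did 30% of 8638 autosomal stretches of that length, and its ratio stood at their 9.87th percentile. Of 24 bins with enough input, 20 were low, 0 high and 4 neither. No bin held more than 26 hMeDIP fragments. Beta thus had no high end of the kind seen in gamma.

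Within beta the bins with at least 10 input fragments ran from -3.63 to -0.60 on the log2 scale. The lowest were bin 50, with 5 hMeDIP and 45 input fragments at -3.63 (-5.32 to -2.30), and bin 40, with 5 and 33 at -3.18 (-4.89 to -1.81). The 4 bins that were not called low were 1 near the alpha side and 3 within 50 kb in the later part. They were bin 36 at -0.68 (-1.92 to 0.54), bin 52 at -0.94 (-2.0 to 0.08), bin 53 at -0.66 (-1.48 to 0.14) and bin 56 at -0.60 (-1.55 to 0.35). Their intervals reach above 0, so that these bins cannot be told from the genome mean at this depth. The SD over beta bins was 0.90, against 0.53 expected from counting.

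Between beta and gamma the ratio was 0.414 (0.334 to 0.511), with 141 fragments in hMeDIP and 248 in input. Beta had 0.674 times (0.524 to 0.867) the ratio of this stretch. Of its 8 bins with enough input, 7 were low. Bin 67 held 0 hMeDIP and 12 input fragments, which allows a ratio of up to 0.262, and bin 69 held 5 and 32, at -3.14 (-4.85 to -1.77). The bin that was not low, bin 73, held 42 fragments of hMeDIP and 36 of input, and stood at -0.24 (-0.91 to 0.45). It contained the only listed peak of the stretch, 37802558 to 37803338 (781 bp), with 18 and 3 fragments and a ratio of 4.37 (1.28 to 23.1). This peak was named after its values were seen. The stretch thus held bins with few or no hMeDIP fragments and, near its gamma side, a short peak.

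The gamma part had a pooled ratio of 1.04 (0.939 to 1.15), with 966 fragments in hMeDIP and 678 in input, and this value hides a course from low to high. Of its 18 bins, 10 were low, 5 neither and 3 high, and they ran from -2.04 to 2.29 on the log2 scale. The first 9 bins, 75 to 83, were all low, with a ratio of 0.359 (0.298 to 0.431) and 11 to 28 hMeDIP fragments each. Bins 84 to 89 had a ratio of 0.867 (0.720 to 1.05), which was 2.41 times (1.86 to 3.15) that of the first 9, and 1 of these 6 was low. The last 35 kb, at the end toward which the gamma C-type and constant exons are known to lie, had a ratio of 3.77 (3.05 to 4.70). That was 6.86 times (5.35 to 8.87) the rest of gamma, which stood at 0.548 (0.483 to 0.622). Taken in these groups of bins, the gamma part thus rose toward its far end, while single bins went up and down within the groups.

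The highest bins of the whole protocadherin region were neighbours at that end. Bin 90 stood at 2.27 (1.76 to 2.82) on the log2 scale, with 238 hMeDIP and 36 input fragments, and bin 91 at 2.29 (1.65 to 2.99), with 154 and 23. Both lay at the 99.2nd percentile of autosomal bins. Bin 92 followed at 1.13 (0.52 to 1.77), with 90 and 30 fragments, and the last 5 kb held 51 and 14 fragments, a ratio of 2.65 (1.45 to 5.19). Gamma as a whole stood at the 61.8th percentile by ratio, and the 74.2nd by number of peaks, of 12576 autosomal stretches of 185 kb. Among bins with at least 10 input fragments, the next by ratio were bin 87, at 0.34 (-0.30 to 0.99), and bin 26 at the end of alpha. The intervals of both include 0.

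The authors' list placed 13 peaks in the region, or 14.1 per Mb, against 37.3 per Mb on the autosomes. That count stood at the 41.5th percentile of the 2547 autosomal stretches of 925 kb, which held a median of 22 peaks, so it is not unusual for that length. Of the 78 bins with enough input, 6 (7.69%) held the midpoint of a peak, against 23.6% of autosomal bins. Gamma held 11 of the 13 peaks, alpha 1, beta 0 and the stretch before gamma 1. The first peak lay 268 kb from the start of the region, and after it came 454 kb without a listed peak. That gap was longer than 99.3% of the 92300 gaps between autosomal peaks, whose median was 3.48 kb. Peaks were thus crowded at the gamma end and nearly missing before it. They were called on hMeDIP signal, so they are no independent evidence of the ratios of the bins that hold them.

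The 10 peaks of the last 35 kb lay within 30847 bp and covered 14811 bp of it. They held 416 hMeDIP and 37 input fragments, which is 43.1% of all hMeDIP fragments of gamma. The peak with the highest score, 632.26, lay at 37975578 to 37978254 (2677 bp) and had a ratio of 7.74 (4.17 to 15.9), with 117 fragments in hMeDIP and 11 in input. The score is the authors' own value and ranks peaks only within their list, where 99.1% of peaks had a lower one. The second by score, 37972129 to 37973792 (1664 bp), had 82 and 7 fragments and a ratio of 8.53 (3.96 to 21.9).

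The third by score, 37979831 to 37982902, was the widest of the region at 3072 bp, with 75 and 4 fragments and a ratio of 13.6 (5.11 to 51.4). The peak at the end of alpha was the fourth by score (145.74), with a ratio of 5.68 (2.24 to 18.5). The fifth, 37983017 to 37984454 (1438 bp), had a ratio of 4.08 (1.55 to 13.5). With 0 to 11 input fragments per peak, the intervals overlap and the peaks cannot be ranked by ratio. Outside the peaks the last 35 kb of gamma had a ratio of 1.29 (0.946 to 1.77), against 0.757 for all fragments of the genome outside peaks. The gamma part as a whole stood at 0.604 (0.537 to 0.678) outside peaks. Of the 533 hMeDIP fragments in the last 35 kb, 416 thus lay in listed peaks.

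**Figure D2:**
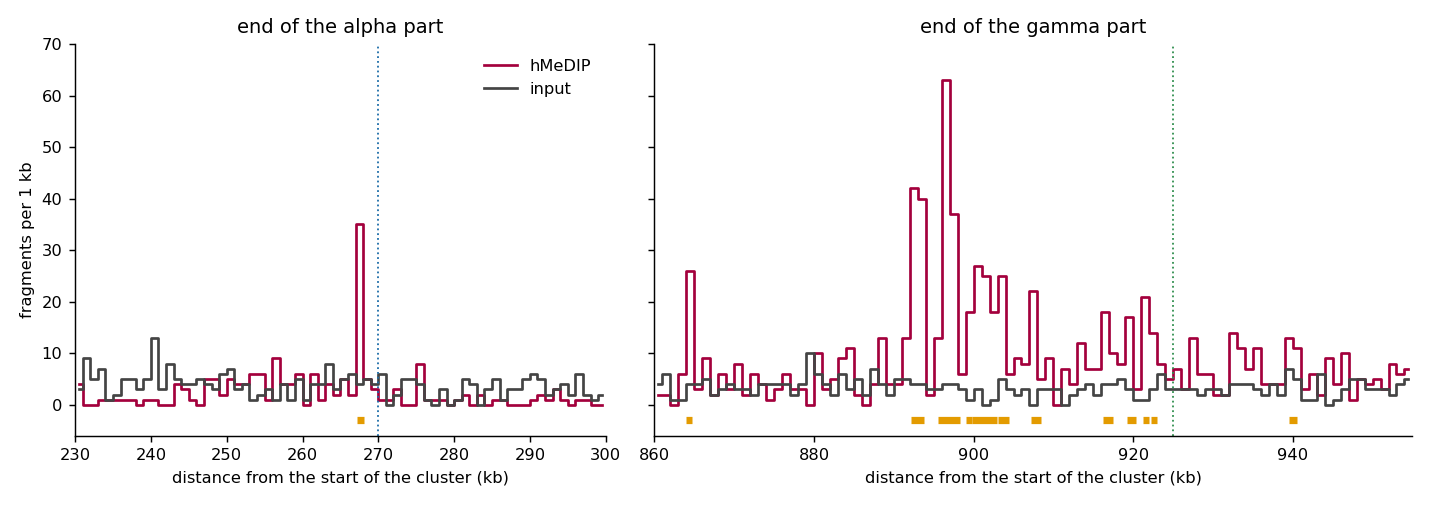
Fragments per 1 kb (vertical axis) of the hMeDIP and the input library against the distance in kb from the start of the region, at the end of alpha (left) and of gamma (right). Orange bars below 0 are listed peaks and dotted lines mark the approximate end of each part; hMeDIP reaches 35 fragments in a single step of the alpha end and 63 in gamma, where high steps follow each other.

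The course from alpha to gamma was compared by ratios of ratios, which do not depend on how the libraries are scaled. Beta stood at 0.927 times alpha (0.770 to 1.12), an interval that includes 1. Without the last 2 bins of alpha the direction turned, and beta stood at 1.26 times alpha (1.03 to 1.54). Gamma stood at 3.45 times alpha (2.93 to 4.06), and beta at 0.269 times gamma (0.228 to 0.317). These differences shrank without the ends and kept their direction: gamma without its last 35 kb was 1.97 times beta (1.64 to 2.36) and 2.47 times alpha without its last 2 bins (2.03 to 3.02). The end of gamma exceeded the end of alpha 3.46 times (2.37 to 5.04). With each part shortened by 1 bin at both ends, beta stood at 1.01 times alpha (0.828 to 1.23). In order, then, alpha and beta were lowest and not told apart as whole parts. Gamma without its last 35 kb was higher and the gamma end highest. The first 9 gamma bins alone stood at 0.359 (0.298 to 0.431), an interval that overlaps those of alpha and beta. Their ratio to either part was not computed. The place of the early alpha bins below beta rests on leaving out the 2 highest alpha bins after they were seen. When scaled to fragments outside peaks or to the median bin, log2 ratios shift by 0.40 and 0.50. Alpha and beta stayed below the reference under both, and gamma came to lie above it at 1.37 (1.24 to 1.51) and 1.47 (1.33 to 1.62).

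**Figure D3:**
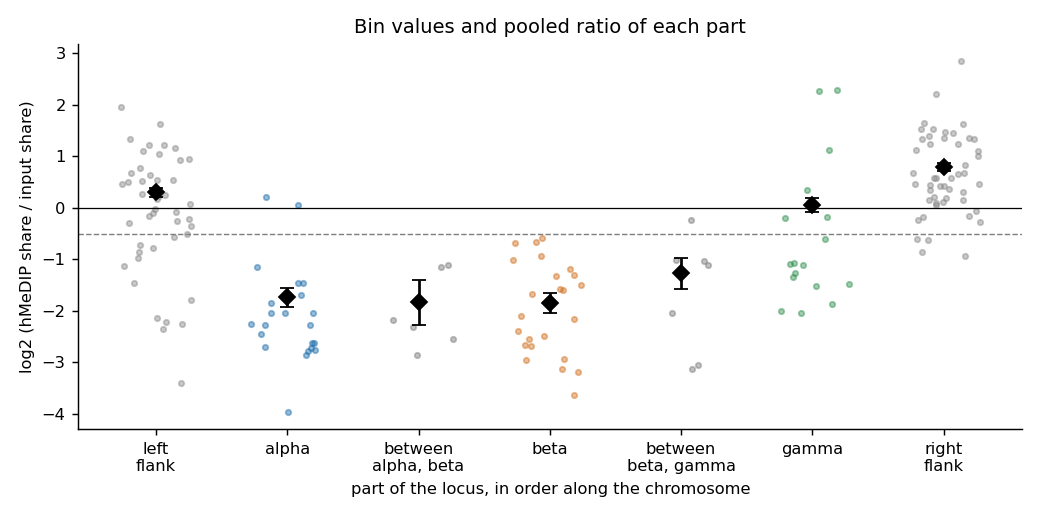
Log2 ratio of hMeDIP to input share (vertical axis) for each part of the locus in chromosomal order; circles are 10 kb bins with at least 10 input fragments and some hMeDIP fragments, spread sideways for view. Black diamonds are pooled ratios with 95% counting intervals, the solid line is the genome mean and the dashed line the median autosomal bin; the pooled ratios of alpha, beta and both stretches between the clusters lie below the dashed line, and gamma bins span from -2.04 to 2.29.

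The flanks had higher ratios than the protocadherin region. The left flank, 36580001 to 37080000, stood at 1.23 (1.15 to 1.31), and the right flank, 38005001 to 38505000, at 1.72 (1.63 to 1.82). The region had 0.395 times (0.362 to 0.431) the ratio of the left flank and 0.282 times (0.260 to 0.306) that of the right. In the left flank 12 of 46 bins were high (26.1%) and 10 low (21.7%), against 20.9% and 42% of autosomal bins. In the right flank 23 of 49 were high (46.9%) and 3 low (6.12%). The flanks held 23 and 54 listed peaks, or 46.0 and 108 per Mb, against 37.3 per Mb on the autosomes. Among 4685 autosomal stretches of 500 kb, the left flank stood at the 67.6th percentile by ratio and the 66.6th by peaks. The right flank stood at the 85.7th and the 89.1st, so part of the contrast lies in a high right flank.

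The border on the alpha side did not coincide with the start of the region. The last 120 kb of the left flank stood at 0.282 (0.219 to 0.362), with 90 hMeDIP fragments on 232 of input, and the 380 kb before them at 1.40 (1.31 to 1.5). The bins next to alpha stood at -3.40 (-4.92 to -2.17) and -2.15 (-3.41 to -1.03). From 130 kb before the region, 3 successive bins held 63, 28 and 10 hMeDIP fragments on 36, 35 and 16 of input, at 0.35, -0.78 and -1.14 on the log2 scale. Input thus fell in the last of them as well, and that bin was not called low. From there to bin 25 of alpha, 37 bins in a row (370 kb, 36960001 to 37330000) lay below the genome mean. This run had a ratio of 0.236 (0.207 to 0.268), a value that its choice as a run of low bins makes low, and 9 of its bins held under 10 input fragments. The low stretch thus began before the region and ended inside the alpha part.

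On the gamma side the ratio came down to an intermediate level. Bin 92 at 1.13 was followed by the last 5 kb of the region, at 1.41 (0.53 to 2.38) on the log2 scale. The first whole bins of the right flank, from 38010001, stood at 0.58 (-0.02 to 1.21) and 0.42 (-0.25 to 1.11). The first 100 kb of the right flank had a ratio of 1.31 (1.16 to 1.48). Of its 9 whole bins, 1 was high and 2 were low, the adjoining bins from 38050001 to 38070000, at -0.86 and -0.63. Bins 90 and 91 exceeded the right flank as a whole 2.81 times (2.12 to 3.78). The highest flank bin, 38330001 to 38340000 on the right, stood at 2.84, with 167 fragments in hMeDIP and 17 in input. The highest score of a flank peak was 666.01, close to the highest in gamma. The protocadherin genes Pcdh1 and Pcdh12, which belong to no cluster, follow Diaph1, Hdac3, Rell2, Fchsd1 and Arap3 in gene order, but their place on mm9 was not determined.

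Input coverage varied along the region as well. Fewer than 10 input fragments were found in 14 of the 92 whole bins (15.2%), against 8.67% of autosomal bins, namely 5 in alpha, 1 between alpha and beta, 3 in beta, 5 between beta and gamma and 0 in gamma. Input per 10 kb was 30.3 fragments in alpha, 30.6 in beta, 19.1 in the stretch between beta and gamma and 36.6 in gamma, against a median of 36 in autosomal bins. Pooled, the 14 bins of few input fragments had a ratio of 0.493 (0.352 to 0.686), and the 78 others 0.474 (0.446 to 0.504). These sets are not alike, because only the 78 others include gamma bins, among them the 3 high bins. The pair therefore does not show how input depth bears on the ratio. The 9 low bins at the start of gamma had 40.1 input fragments per 10 kb. The part of input depth in the low ratios was not tested. The protocadherin genes are similar to each other in sequence, and the treatment of reads that fit several copies is not given in the sources used here. Its part in the ratios was not tested.

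**Figure D4:**
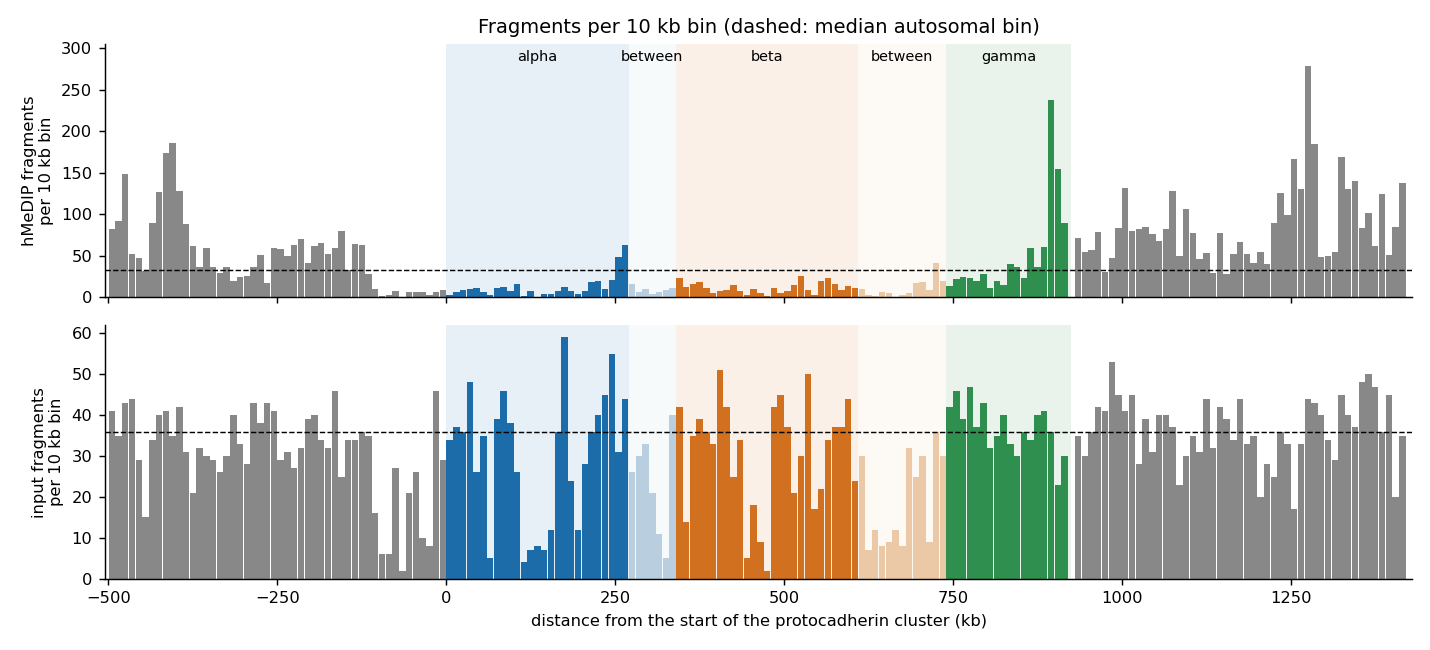
Fragments per 10 kb bin (vertical axes) of the hMeDIP library (top) and the input library (bottom) against the distance in kb from the start of the protocadherin region, coloured by part. Dashed lines are the medians of autosomal bins (33 hMeDIP and 36 input fragments); hMeDIP stays below its median in all alpha and beta bins other than bins 26 and 27 and reaches 238 in bin 90, while input stays at up to 59 fragments in all bins of the region.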

How the data were processed

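Genomic DNA of mouse kidney was sequenced as 1 hMeDIP and 1 input library. Per the submitters' processing notes, CASAVA and Bowtie 1.0.0 were used with the build mm9. The sources used here do not state the read filters. The authors deposited, per library, lines of 350 bp with a strand and a read count. Each line was read as 1 fragment and placed by its midpoint, and the counts served only as an alternative weight. The deposited peak list carries a score per peak, and its header names MACS without version, control or threshold.

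Ratios with exact conditional (Clopper-Pearson) intervals and odds ratios with exact conditional intervals were computed in Python 3.11.15 with scipy 1.17.1. Interval and call code was tested on simulated counts. Alternatives were other scalings, weights, bins, thresholds, fragment lengths, peak rules and part borders.

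Named regions are the 5 peaks with the highest scores, the 3 widest, and 2 bins on each side of each border. The 5 highest and 5 lowest bins with at least 10 input fragments are named as well. The region is set by coordinates, but it, its parts and the rules were chosen with earlier results of these data known. Values per gene were left out, because no gene models of mm9 were used here. Coordinates are 1-based.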

Additional observations from a re-analysis of the deposited data

Results flagged for a closer look

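Positions that carried 2 or more reads, a measure outside the comparisons above, were more frequent in hMeDIP than in input in the right flank. Of 4316 hMeDIP positions there, 51 (1.18%) held 2 or more reads, against 6 of 1823 input positions (0.329%), an odds ratio of 3.62 (1.55 to 10.3), and no position held more than 3. In the protocadherin region itself the shares were 0.767% (14 of 1825) and 0.329% (9 of 2735), an odds ratio of 2.34 (0.942 to 6.15) that includes 1. In the left flank the odds ratio was 1.87 (0.768 to 5.19). Fragments in the right flank were denser in hMeDIP, at 86.3 per 10 kb, than in input, at 36.5. The part of this density in the odds ratio was not tested.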

How the results depend on the processing

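Of 110 values under other settings for 16 results, 75 stayed within the main interval or within 1.5 times the main count, 34 moved and 1 reversed. Weighting by reads, 150 bp fragments, leaving out bins of extreme or no input and requiring 10 input fragments moved none. Shortening each part by 1 bin at both ends moved none either, with beta at 1.01 times alpha. The last bins of alpha, gamma and the left flank were left out, and 10 input fragments required for pooled ratios, after seeing the data.

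Scaled to the fragments outside all peaks, the ratios were 0.641 for the region, 0.397 for alpha, 0.368 for beta, 0.546 for the stretch before gamma, 1.37 for gamma, and 1.62 and 2.28 for the left and right flanks. Centred on the median bin they were 0.688, 0.426, 0.395, 0.586, 1.47, 1.74 and 2.44, and 0.398 between alpha and beta. From fragments outside peaks only, they were 0.361 for the region, 0.604 for gamma and 1.17 for the right flank. All fragments of the genome outside peaks stood at 0.757, so these ratios are to be read against that value and not against 1. The left flank came to 0.973 (0.908 to 1.04), the 1 reversal counted above. It fell below 1 but stayed above 0.757. Beta then stood at 0.462 times gamma, gamma at 2.25 times alpha and the region at 0.307 times the right flank. Without the last bins, alpha stood at 0.221, gamma at 0.548 and the left flank at 1.40. Beta was then 1.26 times alpha and 0.509 times gamma, gamma 2.47 times alpha, and the region 0.347 times the left flank.

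Low and high bins numbered 98 and 6 of 137 with 5 kb bins and 39 and 2 of 46 with 20 kb bins. A threshold of 1 gave 62 and 3. Scaled outside peaks, 49 were low and 4 high, and centred on the median bin, 47 and 6. Autosomal shares for these other bin sizes and scalings are not given here, so the counts cannot be read as an excess or a lack. Peaks numbered 8 among the peaks at or above the median score of the list and 8 when merged within 1 kb. No paired analysis was possible because each group holds 1 library. Depth limits single bins, for which counting alone gave an SD of 0.52 on the log2 scale in the region.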
